A study of Mus musculus with 56 samples.

Results

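The 10 genes described here, Fos, Fosl2, Jun, Junb, Jund, Atf3, Egr1, Myc, Klf6 and Ier3, encode transcription factors and 1 survival protein. Cells switch them on quickly after growth factors, cytokines or injury, except for Jund, which is made at a steady level in most cells. They were taken by symbol from the 21888 gene symbols of a liver RNA-seq table, in which each has 1 row, and were followed in all 14 livers. The livers come from mice of 129Sv/J background. Floxed mice, which carry loxP sites around the miR-122 precursor, were left uninjected (day 0, n = 3) or were taken 21 days (n = 3), 45 days (n = 3), 100 days (n = 1) or 200 days (n = 1) after an adeno-associated vector (rAAV8) carrying Cre under the Ef1a promoter was given into the tail vein. The mice of days 100 and 200 are tested as 1 group. The knockout mice (n = 3) lack miR-122 from the germline, are not floxed and received no vector. Uninjected mice had no control vector, so the vector, Cre and the loss of miR-122 cannot be told apart in the injected mice, and the Ef1a promoter is active in most cell types. Each library is 1 mouse, and the sex of the mice and their exact ages are not given. Where small RNA of the same labels was measured, miR-122 made up 59.2% to 73.3% of microRNA reads in uninjected livers, 8.22% to 13.2% at day 21, 0.383% to 1.23% at day 45, 4.46% at day 100 and 19.1% at day 200.

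Immediate early genes need no new protein to be transcribed. MAP kinases reach factors already bound at their promoters, and the RNA appears and decays quickly. Fos and Jun proteins pair through leucine zippers to form AP-1, Atf3 pairs with Jun proteins, and Myc pairs with Max to drive growth genes. In liver these genes are best known for their rise after partial removal of the organ, at the start of regeneration, and they also respond to handling and dissection of the tissue.

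The promoters of 8 of the 10 genes were read from RefSeq (build GRCm38.p6, 250 bases before the transcription start, strand of the gene). The 4 shown are those of Fos, Jun and Atf3, whose levels moved together between mice of a group, and of Klf6, which rose after Cre. Capitals mark TGACG, the core of the cyclic AMP response element, on either strand, the site TGACATCA known from the Jun promoter, and the E-box CACGTG to which Myc and Max bind.
Fos, chr12:85473640-85473889, plus strand: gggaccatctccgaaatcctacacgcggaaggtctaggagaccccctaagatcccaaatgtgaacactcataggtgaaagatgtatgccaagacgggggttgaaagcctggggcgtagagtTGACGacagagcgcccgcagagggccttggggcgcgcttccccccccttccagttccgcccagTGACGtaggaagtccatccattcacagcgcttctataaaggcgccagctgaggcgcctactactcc
Jun, chr4:95052223-95052472, minus strand: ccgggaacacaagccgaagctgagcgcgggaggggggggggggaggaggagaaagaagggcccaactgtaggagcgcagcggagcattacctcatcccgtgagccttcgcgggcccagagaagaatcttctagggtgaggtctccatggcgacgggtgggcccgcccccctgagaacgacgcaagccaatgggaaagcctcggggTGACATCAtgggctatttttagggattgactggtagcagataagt
Atf3, chr1:191183334-191183583, minus strand: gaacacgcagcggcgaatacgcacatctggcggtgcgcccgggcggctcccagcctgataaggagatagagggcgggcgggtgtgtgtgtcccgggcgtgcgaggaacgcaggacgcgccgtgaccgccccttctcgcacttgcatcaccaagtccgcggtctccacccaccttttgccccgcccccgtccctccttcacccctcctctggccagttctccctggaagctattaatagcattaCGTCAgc
Klf6, chr13:5861239-5861488, plus strand: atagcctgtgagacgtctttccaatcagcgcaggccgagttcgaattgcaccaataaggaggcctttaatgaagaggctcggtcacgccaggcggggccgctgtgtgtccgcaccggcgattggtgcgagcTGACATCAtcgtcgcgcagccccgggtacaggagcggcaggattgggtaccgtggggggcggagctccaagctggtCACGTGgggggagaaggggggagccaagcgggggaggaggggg
The Fos window holds TGACG at 129 to 125 and at 66 to 62 bases before the start, and that of Atf3 holds it at 7 to 3. Junb, not shown, has TGACG at 106 to 102. TGACG was present in 17.9% of the 27025 promoters of the same length, read on both strands. TGACATCA, a search that was added after the sequences were seen, lies at 45 to 38 in Jun and at 119 to 112 in Klf6 and is found in 3.02% of all promoters. CACGTG lies at 43 to 38 in Klf6 and is found in 6.05%. The full element TGACGTCA (1.62% of promoters, each with TGACG inside it), the AP-1 sites TGAGTCA and TGACTCA (4.43%) and the CArG box of the serum response element (1.4%) had no match in the 8 windows. Sites farther than 250 bases before the start lie outside these windows, and Egr1 and Myc are not among the 8 genes. An EGR site, GCGTGGGCG or GCGGGGGCG (3.05%), was matched in that of Fosl2. A match is a run of letters and does not show binding.

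The values are FPKM, in which fragment numbers are divided by transcript length and library size, so levels of different genes can be compared. All 10 genes passed the filter of a mean of at least 1 FPKM that left 11354 genes for testing. On the FPKM scale the mean over the 14 mice ran from 83.7 for Egr1, 45.1 for Fos and 40.2 for Jun down to 5.63 for Myc and 4.02 for Fosl2. The lowest single values, 0.485 FPKM of Atf3, 0.52 of Fos and 0.646 of Ier3, all in uninjected mouse B, still stand for about 43.6, 49.7 and 33.1 fragments, so that they do not rest on a few fragments. The effective depth, taken from the steps between low values, was 32160000 to 50400000 fragments in the floxed livers and 20850000 to 26660000 in the knockout livers. Alb, an albumin gene that hepatocytes use, is listed at 0 in all 14 libraries, while Cyp2e1 and Hnf4a, also hepatocyte genes, had at least 2748 and 156 FPKM in every liver.

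**Figure D1:**
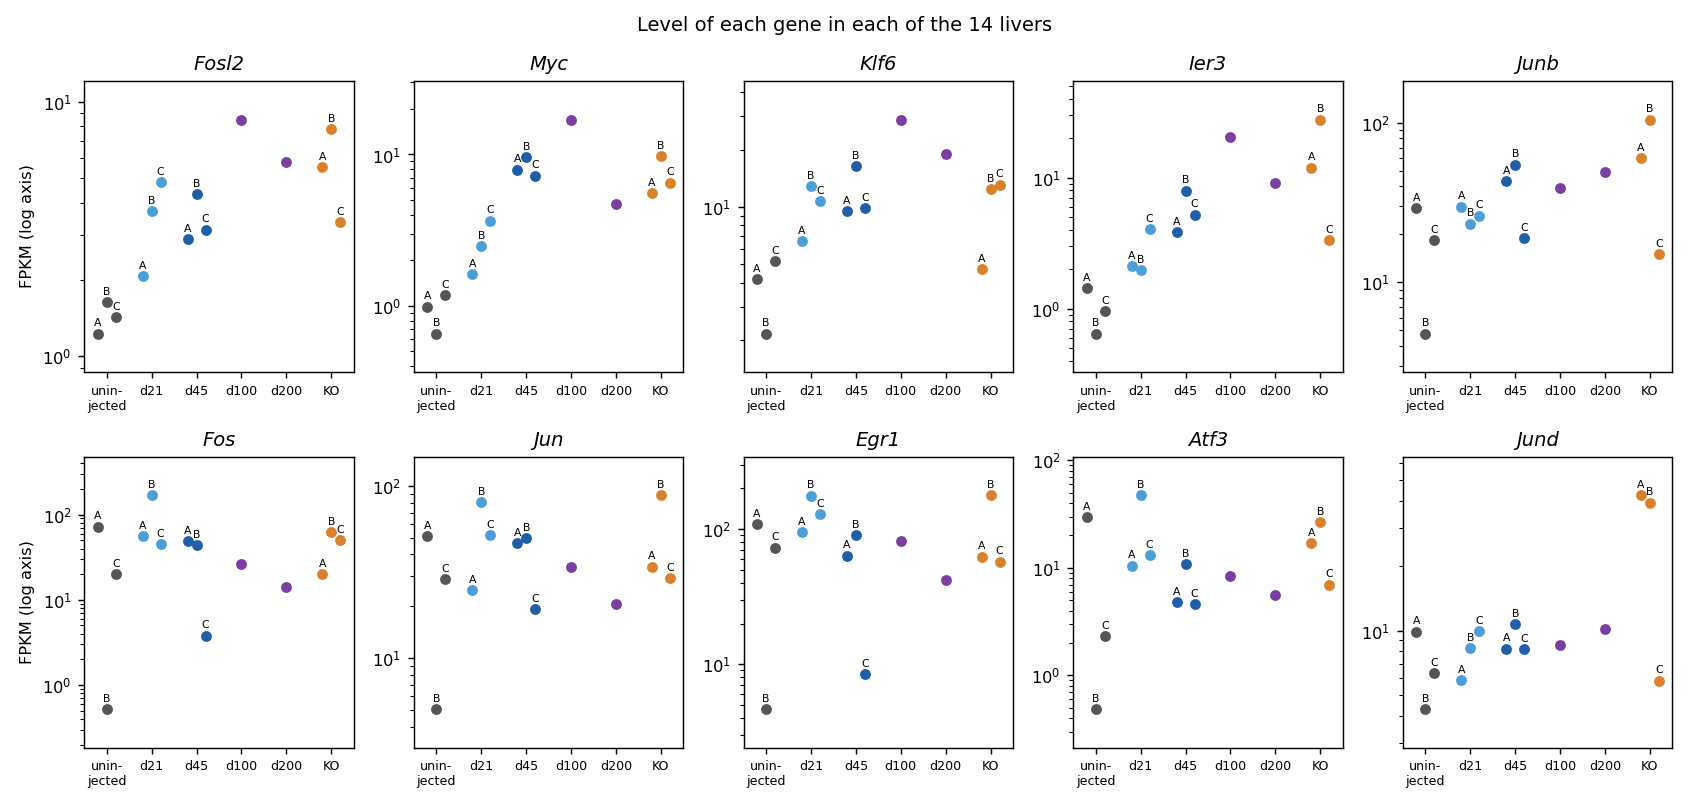
FPKM (log axis) of each gene in each of the 14 livers, with mice A, B and C of a group set side by side and marked by letter (KO, knockout). Fosl2, Myc, Klf6 and Ier3 lie above the uninjected mice in every injected liver, while Fos, Jun, Egr1 and Atf3 spread widely within groups, with uninjected mouse B lowest.

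4 of the 10 genes were raised after Cre: Myc, Klf6, Ier3 and Fosl2. Each was above all 3 uninjected mice in every injected liver, as were 25.2%, 40.5% and 52.9% of tested genes at the 3 times, and each passed the test at day 45 and at days 100 and 200. At day 45 a separation of 4 of 10 genes is near the share over all genes. At days 100 and 200 it lies below that share, also with Junb, which was then separated as well. At day 21 the differences were in the same direction and none passed. In limma, which fits a linear model to every gene and moderates its variance, on log2(FPKM + 1) with p adjusted by Benjamini-Hochberg over all tested genes (threshold 0.05), 0 of the 10 were called at day 21, against 7.62% of all tested genes in either direction and with 3 of the 10 (Fosl2, Klf6 and Myc) at an unadjusted p under 0.05 (21.7% of tested genes). At day 45, 4 were called higher and 0 lower, against 23.7% of tested genes called higher and 2.99% lower. At days 100 and 200, 4 were called higher and 0 lower, against 28.4% and 3.21%. The median log2 difference of the 10 was 1.03, 0.83 and 1.16 at the 3 times, beside 0.06, 0.20 and 0.31 over all tested genes. Without uninjected mouse B the median of the 10 was 0.74, 0.38 and 0.56, without uninjected mouse A 1.32, 1.60 and 1.83, and without day 45 mouse C 1.37 at day 45, while that over all tested genes stayed at 0.05 to 0.07, 0.20 to 0.22 and 0.30 to 0.32. After subtraction of each library's median log ratio, 2 of the 10 (Myc and Klf6) were called at day 45 and the same 4 at days 100 and 200, with 21.5% and 24.5% of all tested genes called in either direction. With 1 mouse left out, 1 to 4 of the 10 were called at day 45 (1 without uninjected B or without day 45 B, 2 without uninjected A, uninjected C or day 45 C, and 4 without day 45 A) and 3 or 4 at days 100 and 200. These settings called 15.7% to 24.1% of all tested genes at day 45 and 14.3% to 26.9% at days 100 and 200, in either direction.

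Myc, the growth-promoting factor whose partner is Max (chr15:61816895-61821916 of mm9), had 0.988, 0.657 and 1.18 FPKM in uninjected mice A, B and C. It had 1.62, 2.50 and 3.66 FPKM at day 21 and 7.93, 9.57 and 7.25 FPKM at day 45. The liver of day 100 held 17.0 FPKM and that of day 200 held 4.71, while the knockout mice A, B and C had 5.53, 9.76 and 6.52. No value of the injected or knockout mice fell into the uninjected range. On the log2(FPKM + 1) scale the difference from uninjected was 0.86 at day 21 (SE 0.35, limma adjusted p = 0.18), 2.25 at day 45 (SE 0.35, adjusted p = 0.0011) and 2.39 at days 100 and 200 (SE 0.40, adjusted p = 0.00079). Under the 17 alternatives tried the adjusted p of day 45 stayed between 0.00028 and 0.0206. Under the 15 tried for days 100 and 200 the difference ran from 1.57, without the day 100 mouse, to 3.22, without the day 200 mouse. All 3 mice of day 45 lay above all 3 of day 21, as in 27.9% of tested genes, with a difference of 1.40 (SE 0.35, adjusted p = 0.11). In order of group means Myc stood at 0.940 ± 0.263 FPKM in uninjected mice (SD, n = 3), 2.59 ± 1.02 at day 21 (n = 3), 7.27 ± 2.21 in the knockout (n = 3), 8.25 ± 1.19 at day 45 (n = 3) and 10.9 ± 8.70 at days 100 and 200 (n = 2). The last 3 of these groups overlapped. The day 200 liver held less Myc than any day 45 liver, whereas it held more Klf6, Ier3 and Fosl2 than any of them, and it is 1 mouse.

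Klf6, a zinc finger factor of the Kruppel-like family (chr13:5860734-5869639), had 4.18, 2.17 and 5.22 FPKM in uninjected mice. The values were 6.64, 12.9 and 10.8 FPKM at day 21, 9.48, 16.3 and 9.88 at day 45, 28.7 at day 100 and 18.9 at day 200. Days 21 and 45 overlapped, and both late livers lay above all of day 45. The log2 difference from uninjected was 1.20 at day 21 (SE 0.38, adjusted p = 0.074), 1.42 at day 45 (SE 0.38, adjusted p = 0.015) and 2.38 at days 100 and 200 (SE 0.42, adjusted p = 0.0012). The day 45 call was lost without uninjected mouse B (adjusted p = 0.066) and without day 45 mouse B (adjusted p = 0.076), among 3 of 17 alternatives, with adjusted p up to 0.0973 when uninjected B and day 45 C were both left out.

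Ier3, which protects cells from apoptosis and is induced by NF-kB and growth factors (chr17:35958657-35959856), had 1.44, 0.646 and 0.952 FPKM in uninjected mice, 2.12, 1.98 and 4.04 at day 21, 3.83, 7.98 and 5.24 at day 45, 20.3 at day 100 and 9.19 at day 200. Days 21 and 45 overlapped, and both late livers lay above all of day 45. The log2 difference from uninjected was 0.86 at day 21 (SE 0.54, adjusted p = 0.40), 1.70 at day 45 (SE 0.54, adjusted p = 0.034) and 2.89 at days 100 and 200 (SE 0.60, adjusted p = 0.0033), the largest of the 10 genes at that time. At day 45 the call was lost in 9 of 17 alternatives, with adjusted p up to 0.172, and the late call was lost without the day 100 mouse (adjusted p = 0.06).

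Fosl2, the Fos family member also called Fra-2 (chr5:32438844-32460212), had 1.23, 1.64 and 1.43 FPKM in uninjected mice, 2.06, 3.72 and 4.83 at day 21, 2.89, 4.35 and 3.15 at day 45, 8.51 at day 100 and 5.77 at day 200. Unlike Fos, it varied little among the uninjected mice, and the late livers stood above all others from floxed mice. The log2 difference was 0.85 at day 21 (SE 0.28, adjusted p = 0.083), 0.86 at day 45 (SE 0.28, adjusted p = 0.036) and 1.73 at days 100 and 200 (SE 0.31, adjusted p = 0.0013). The day 45 call was lost in 9 of 17 alternatives, with adjusted p up to 0.146, and the late call in 0 of 15.

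Between the times after Cre, 0 of the 10 genes were called by limma. From day 21 to day 45, 1 of them (Myc) had an unadjusted p under 0.05, as did 16% of tested genes, and limma called 0.273% of tested genes (31 genes, and 1 gene with the mouse letters as a replicate block). From day 45 to days 100 and 200, 2 (Fosl2 and Klf6) had an unadjusted p under 0.05, as did 7.84% of tested genes, and 0.22% were called. In that step Fosl2, Klf6 and Ier3 were higher in both late livers than in all 3 of day 45, against 23.7% of tested genes that were separated in this way. Their log2 differences were 0.86 (95% interval 0.19 to 1.53), 0.95 (0.04 to 1.87) and 1.19 (-0.12 to 2.50), with adjusted p of 0.45, 0.61 and 0.70. For Myc the same difference was 0.14 (-0.72 to 1.00).

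Junb was the Jun family gene whose late livers lay above all uninjected mice. JunB, a partner of Fos proteins that can also restrain c-Jun, had 29.1, 4.78 and 18.3 FPKM in uninjected mice, 29.8, 23.3 and 26.2 at day 21, 43.0, 54.8 and 18.9 at day 45, 39.3 at day 100 and 49.4 at day 200. Uninjected mice overlapped those of days 21 and 45, and both late livers lay above the uninjected mice. The log2 differences at days 21 and 45 were 0.87 and 1.29, and the late one was 1.59 (SE 0.75, 95% interval -0.05 to 3.22, adjusted p = 0.13), and none passed the test in the fit with equal weights for all mice. With array weights the late difference was called (1.49, adjusted p = 0.022), with 51.8% of all tested genes. Jund, the Jun protein made at a steady level in most cells, had 9.90, 4.32 and 6.34 FPKM in uninjected mice. In the injected mice it ranged from 5.90 to 10.7 FPKM, which overlapped the uninjected range, with log2 differences of 0.24, 0.41 and 0.46 at the 3 times and adjusted p of 0.87, 0.66 and 0.62. A change of Jund by up to 1.79 log2 units at days 100 and 200 lies within the 95% interval.

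**Figure D2:**
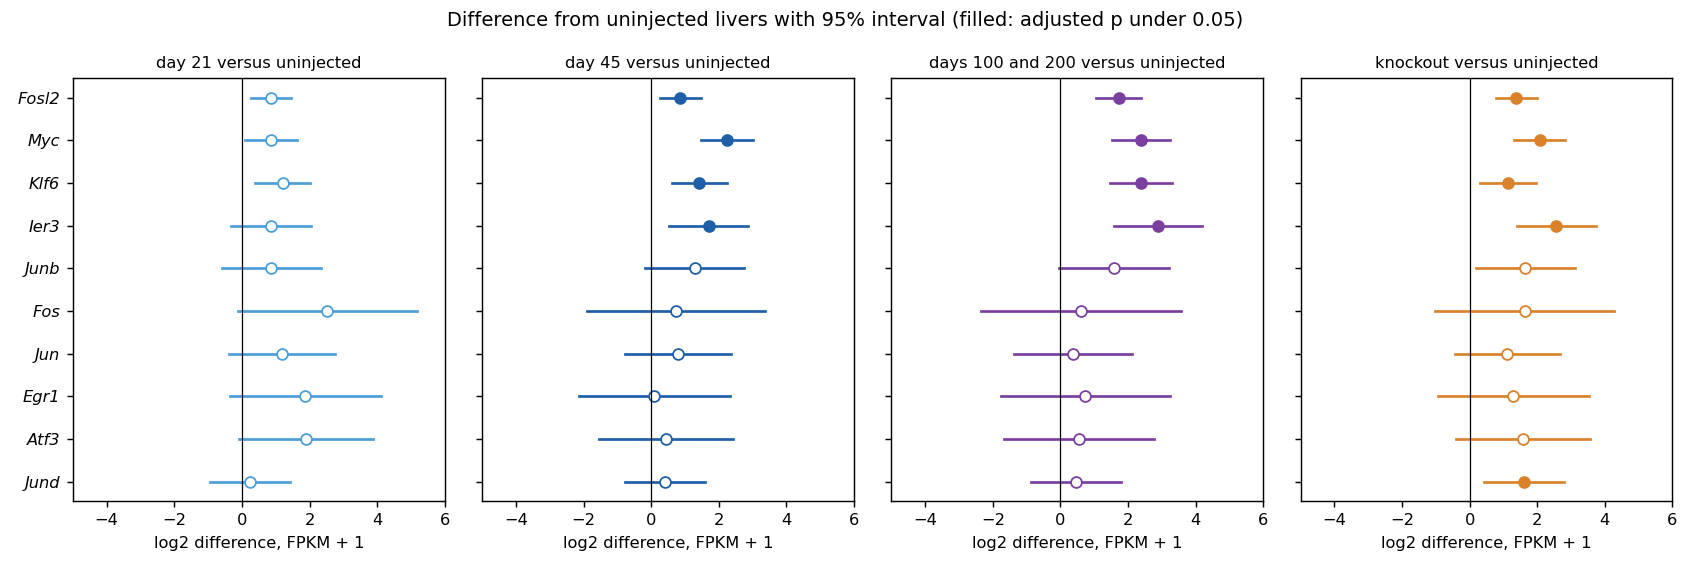
Log2 difference of FPKM + 1 from the uninjected mice for each gene in 4 comparisons, with the 95% interval of the limma fit, and filled points where the adjusted p was under 0.05. Fosl2, Myc, Klf6 and Ier3 are filled at day 45, at days 100 and 200 and in the knockout, and the intervals of Fos, Egr1, Jun and Atf3 span 0 in all 4 panels.

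Fos, Jun, Egr1 and Atf3 were not called at any time after Cre in the fit with equal weight for all mice, and their levels spread widely within groups. Fos, the partner of Jun in AP-1, had 72.1, 0.52 and 19.8 FPKM in uninjected mice A, B and C, a 139-fold range among untreated livers. At day 21 it had 56.1, 169 and 44.9 FPKM, at day 45 48.4, 44.3 and 3.79, at day 100 26.3 and at day 200 14.0. Every group but that of day 21 lay inside the uninjected range. The log2 difference was 2.53 at day 21 (SE 1.22, 95% interval -0.11 to 5.17, adjusted p = 0.25), 0.74 at day 45 (-1.90 to 3.38) and 0.61 at days 100 and 200 (-2.34 to 3.57). Without uninjected mouse B the differences at day 45 and at days 100 and 200 turned to -0.82 and -0.95, so that they give no direction for Fos.

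Jun, the central AP-1 subunit, had 51.3, 5.05 and 28.6 FPKM in uninjected mice, 24.9, 80.2 and 51.7 at day 21, 46.7, 49.6 and 19.2 at day 45, 34.0 at day 100 and 20.6 at day 200. Egr1, a zinc finger factor induced through the same kinases as Fos, had 109, 4.65 and 72.9 FPKM in uninjected mice, 95.5, 177 and 129 at day 21, 63.6, 90.7 and 8.41 at day 45, 81.1 at day 100 and 42.2 at day 200. For Egr1, the 3 mice of day 21 lay above all 3 of day 45 (log2 difference of day 45 from day 21 -1.77, SE 1.03, adjusted p = 0.43), a separation downward that 2.85% of tested genes showed. Atf3, a stress-induced factor of the ATF family, had 29.8, 0.485 and 2.33 FPKM in uninjected mice, 10.5, 47.3 and 13.1 at day 21, 4.83, 10.9 and 4.57 at day 45, 8.38 at day 100 and 5.59 at day 200. Uninjected mouse A alone carried most of the uninjected level of Atf3. For Jun, Egr1 and Atf3 the log2 differences from uninjected at day 21 were 1.19, 1.86 and 1.89, and at day 45 they were 0.79, 0.09 and 0.45. None passed the test in that fit. Without uninjected mouse B the day 21 differences were 0.29, 0.53 and 0.97, and that of Fos was 0.97. Without uninjected mouse A they were 1.84, 2.68 and 3.16, and 3.76 for Fos, and Atf3 was then called (adjusted p = 0.032), as it was with array weights (2.69, adjusted p = 0.013). Those of day 45 and of days 100 and 200 changed sign for all of Jun, Egr1 and Atf3 without uninjected mouse B.

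The residual SD within groups, on the log2(FPKM + 1) scale, was 1.74 for Fos, 1.47 for Egr1, 1.31 for Atf3 and 1.02 for Jun. Among the 11354 tested genes 0.528%, 0.643%, 0.784% and 1.18% had a larger one. It was 0.96 for Junb, 0.77 for Jund and 0.76 for Ier3, and 0.52, 0.49 and 0.37 for Klf6, Myc and Fosl2, where 8.06%, 10.3% and 25% of tested genes had a larger one. The median over all tested genes was 0.27.

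Uninjected mouse B held the lowest value of its group for 9 of the 10 genes, all but Fosl2. It was lowest for 40 of 49 other immediate early genes tested and for 39% of all tested genes. Its level was below the mean of the other uninjected mice by 88.4-fold for Fos, 33.2-fold for Atf3, 19.6-fold for Egr1 and 7.92-fold for Jun, but by 1.65-fold for Myc and 1.85-fold for Ier3. At day 45 mouse C was lowest for 7 of the 10 genes, namely Fos, Egr1, Jun, Junb, Atf3, Jund and Myc. It was lowest for 21 of the 49 other immediate early genes and for 35.2% of all tested genes. Beside this, the summed markers of macrophages in uninjected mouse B were 229.9 FPKM, the lowest of its group (up to 417). Those of neutrophils (5.08), lymphocytes (3.35) and stellate cells and fibroblasts (141) were also the lowest of the group in that mouse, and those of endothelium (122) and cholangiocytes (49.2) lay inside it. Macrophage markers of day 45 mouse C were 874 FPKM, within its group (818 to 920), while those of neutrophils (87.5), lymphocytes (22.3) and endothelium (190.4) were the highest of the group in that mouse and those of stellate cells and fibroblasts (409) and cholangiocytes (706) lay inside it. The part of these cells in the low levels was not tested.

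**Figure D3:**
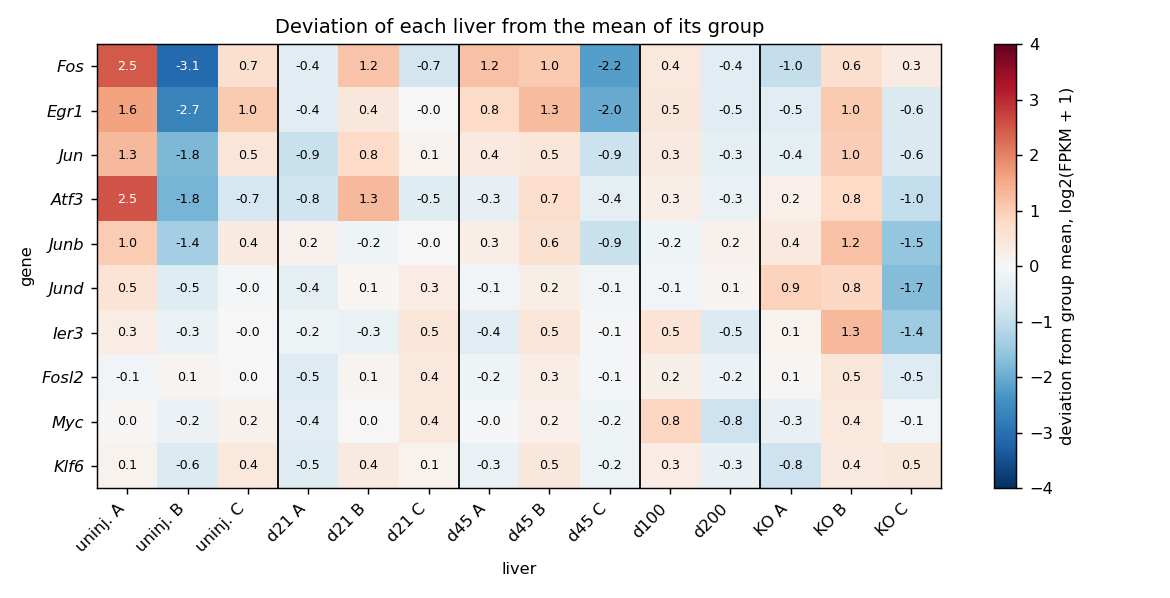
Deviation of each liver from the mean of its group on the log2(FPKM + 1) scale, for the 10 genes (rows) in 14 livers (columns), with red above and blue below the mean. Fos stands at -3.12 in uninjected mouse B and at -2.20 in day 45 mouse C, with Egr1 and Jun below the mean in the same livers, whereas Fosl2, Myc and Klf6 stay within 0.84 of their group means.

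Likeness of this variation was measured as Pearson's r of the deviations from the 5 group means over the 14 mice, as a description without a test, since the same libraries and depth stand behind all genes. Among the 10 genes, r was 0.94 between Fos and Egr1, 0.93 between Jun and Egr1, 0.89 between Fos and Jun, 0.83 between Jun and Atf3 and 0.80 between Junb and Jund. Fosl2 did not share the variation of Fos (r = -0.01), and was most like Ier3 (0.82) among the 10. Over all tested genes, the 3 most like Fos were Btg2 (0.97), Egr1 and Rtn4 (0.93). Those most like Egr1 were Zfp36 (0.97), Btg2 (0.94) and Fos, and those most like Jun were Zfp36 (0.95), Egr1 and Cyp4a31 (0.91). Btg2, a brake on proliferation, and Zfp36, which speeds the decay of cytokine mRNA, are immediate early genes themselves. Junb was most like Gdf15 (0.96), Ier2 (0.94) and Cldn14 (0.94), and Atf3 most like Atp6v1g1 (0.95), Ywhaq (0.92) and Mrfap1 (0.91). Myc was most like Mad2l1 (0.89), Mybl1 (0.89) and Nusap1 (0.88), of which Mad2l1 and Nusap1 encode proteins of the mitotic spindle. Klf6 was most like Slbp, Vegfc and Sgcb (0.92 each), and Fosl2 most like Ccrl2 (0.91), Tnfrsf12a (0.91) and Sh3pxd2b (0.90), of which Tnfrsf12a is the receptor of the cytokine TWEAK. Ier3 was most like Basp1 (0.97), Glt25d1 (0.96) and U2af2 (0.96) and Jund most like Plekho1 (0.98), Nsmce1 (0.97) and Lemd2 (0.97). Jund deviated by 0.925, 0.813 and -1.738 in knockout mice A, B and C and by at most 0.535 in size elsewhere. Ier3 deviated by 0.14, 1.295 and -1.435 in them, and Junb had its lowest deviation, -1.545, in knockout mouse C. The r of Jund and Ier3 thus rests largely on the knockout libraries, which differed from each other as described next.

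**Figure D4:**
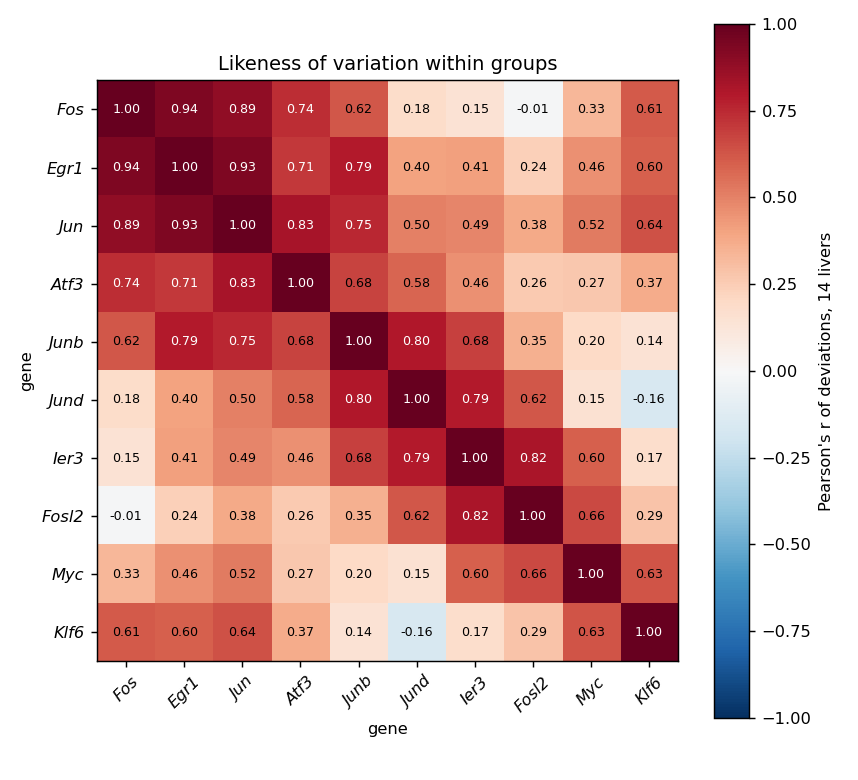
Pearson's r between genes of the deviations from group means over 14 livers (red, positive). Fos, Egr1, Jun and Atf3 share r of 0.71 to 0.94 with each other, and Fosl2 lies near 0 with Fos.

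The 3 knockout libraries differed from each other. Spearman's correlation over tested genes was 0.981 between mice A and B, but 0.841 and 0.864 between them and C, which was closer to the floxed livers (0.922 to 0.951). In A and B the medians of genes moved with GC content, from -0.95 and -0.70 log2 units against uninjected in transcripts under 45% GC to 0.89 and 0.88 in those with 60% or more. In C they were 0.10 and -0.04. Of the 10 genes, Jund (62.7% GC) and Junb (62.6%) lie in the highest class and Klf6 (42.4%) in the lowest. Knockout differences of the 10 genes are therefore given with all 3 mice and with mouse C left out or alone. Counts of the other lists and of markers in the knockout rest on all 3 mice only. With all 3 mice limma called 33.8% of tested genes against uninjected, and without C 62.4%. The part of GC content in the levels of A and B was not tested beyond removing its trend.

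**Figure D5:**
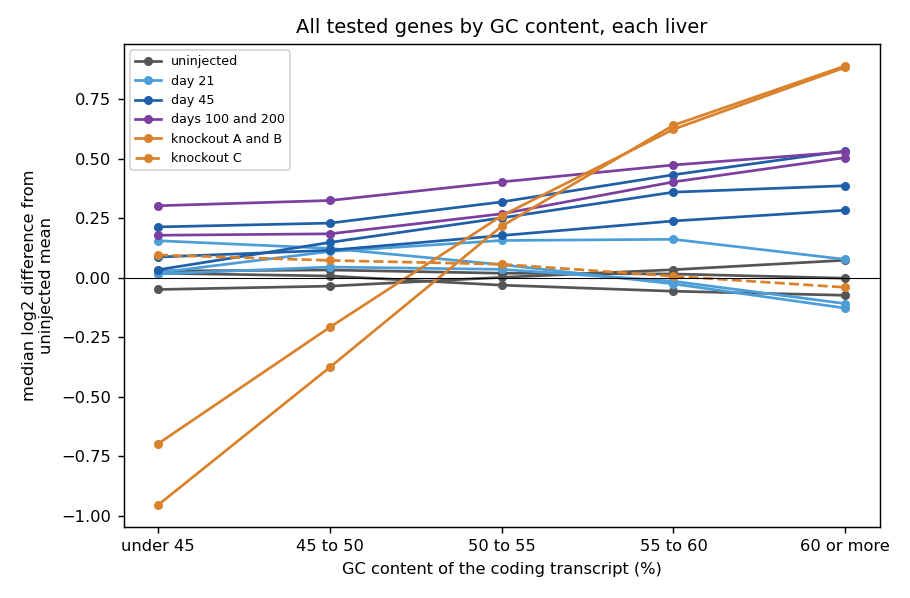
Median log2 difference from the uninjected mean (vertical axis) of tested genes in 5 classes of transcript GC content (horizontal axis, percent), with 1 line for each liver. Knockout mice A and B rise from -0.95 and -0.70 to 0.89 and 0.88, while knockout mouse C (dashed) stays between -0.04 and 0.10.

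Against uninjected mice, 5 of the 10 genes were called higher in the knockout and 0 lower, beside 19.3% of tested genes called higher and 14.5% lower. They were Myc, Ier3, Fosl2, Jund and Klf6. Myc, Ier3 and Fosl2 lay above all uninjected mice in each knockout liver, as did 21.1% of tested genes. Knockout Myc differed by 2.07 (SE 0.35, adjusted p = 0.0017), by 2.12 without mouse C and by 1.96 with mouse C alone (adjusted p = 0.0504), so all 3 libraries gave a like value. Ier3 had 11.97, 27.9 and 3.35 FPKM in knockout mice A, B and C and differed by 2.57 (SE 0.54, adjusted p = 0.0051), by 3.28 without C and by 1.13 in C alone (adjusted p = 0.176). Fosl2 had 5.55, 7.82 and 3.38 FPKM and differed by 1.38 (SE 0.28, adjusted p = 0.0040), with 1.65 without C and 0.85 in C alone (adjusted p = 0.158). Klf6 had 4.74, 12.4 and 13.1 FPKM, with mouse A inside the uninjected range, and differed by 1.14 (SE 0.38, adjusted p = 0.037). The Klf6 difference was 1.59 in C alone (adjusted p = 0.062) and missed the threshold without C (0.91, adjusted p = 0.069), while removal of the GC trend gave 1.63 (adjusted p = 0.0025). The Klf6 call was lost in 9 of 18 alternatives, with adjusted p up to 0.165, and that of Jund, described next, in 10 of 18. Jund had 42.4 and 39.2 FPKM in A and B but 5.86 in C, inside the uninjected range. Its difference of 1.60 (SE 0.55, adjusted p = 0.040) rests on A and B, was 2.47 without C and -0.13 in C alone, and was not called once the GC trend was removed from each library. With mouse C alone, 0 of the 10 genes were called, by limma with the lone mouse taken to vary like the other groups.

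Fos, Jun, Egr1, Atf3 and Junb were not called in the knockout in the fit with equal weights, while array weights called all 10 genes, with 78.9% of all tested genes. Fos had 20.0, 61.9 and 50.3 FPKM in mice A, B and C, Jun had 34.0, 88.3 and 29.2, Egr1 had 62.5, 178 and 57.5 and Atf3 had 17.1, 26.8 and 6.98. Mouse B was the highest of the 3 for all 4 of them. The differences from uninjected were 1.62, 1.11, 1.28 and 1.57, against 1.46, 1.41, 1.57 and 2.07 without mouse C and 1.96, 0.52, 0.71 and 0.58 in C alone. Without uninjected mouse B they were 0.063, 0.21, -0.049 and 0.65, and without uninjected mouse A 2.86, 1.77, 2.10 and 2.84, where Atf3 was called (adjusted p = 0.014). Junb had 60.1, 105 and 15.1 FPKM, with a difference of 1.65 (SE 0.67, adjusted p = 0.073) that was called without C (2.42, adjusted p = 0.0038) and was 0.11 in C alone. Without uninjected mouse A the Junb difference was 2.155 and was called (limma adjusted p = 0.0465), and without uninjected mouse B it was 0.97.

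The knockout and day 45 livers were compared directly. They differ in germline or adult loss, but also in vector, Cre, loxP sites and sequencing depth. These cannot be told apart here. Between the knockout and day 45, 0 of the 10 genes were called, while limma called 9.44% of tested genes, and 1 of the 10 (Jund) had an unadjusted p under 0.05, as did 36.4% of tested genes. The log2 difference, knockout minus day 45, was -0.19 for Myc (95% interval -0.96 to 0.58), -0.29 for Klf6 (-1.11 to 0.53), 0.52 for Fosl2 (-0.08 to 1.12) and 0.86 for Ier3 (-0.31 to 2.04). With mice A and B alone these differences were -0.13, -0.52, 0.78 and 1.58, and with C alone they were -0.29, 0.17, -0.01 and -0.57. Without knockout mouse C, 3 of the 10 (Fosl2, Jund and Ier3) were called higher than at day 45, while 14.7% of tested genes were called higher and 52.2% were called in either direction. The median difference of the 10 was 0.69, beside -0.23 over all tested genes, and was 0.96 with A and B and -0.14 with C alone.

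Other genes of the same pathways were counted from lists made for this work, as genes tested, higher and lower, to be read against the 23.7% and 28.4% of all tested genes called higher at day 45 and at days 100 and 200. Of the other AP-1 and related basic zipper factors, 5 of 12 rose and 0 fell at day 45, led by Maff (log2 difference 1.58), Batf (1.11) and Mafk (1.00), and 5 rose and 0 fell at days 100 and 200, led by Maff (2.22), Jdp2 (1.80) and Batf (1.32), which is 41.7% at both times. Of 49 other immediate early genes, 11 rose at day 45 (Id1 2.14, Ctgf 2.14 and Socs3 1.86) and 17 at days 100 and 200 (Ctgf 3.03, Id1 2.58 and Rhob 2.23), with 0 lower. The shares of 22.4% and 34.7% lie near those over all genes. Btg2, Zfp36 and Ier2, which varied like Fos, Egr1 and Junb between mice, were not called (day 45 differences of 1.27, -0.13 and 0.26). The median log2 difference of the 49 was 0.66 at day 45 and 0.79 later, beside 0.83 and 1.16 for the 10 genes.

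Upstream of these genes, 13 of 24 growth factor and cytokine ligands and receptors rose and 1 fell at day 45. The fall was Egfr, the EGF receptor (-1.83), and Pdgfra (1.57) and Pdgfa (1.43) followed in size. At days 100 and 200, 14 rose and 1 (Egfr, -2.24) fell, led by Pdgfb (2.55), Fgfr1 (2.54) and Pdgfra (2.49), so that 54.2% and 58.3% were higher at these times. In the MAP kinase chain 4 of 29 rose and 0 fell at day 45 (Mapk3 1.11, Elk3 1.06 and Map3k1 1.00) and 8 rose and 0 fell at days 100 and 200 (Map3k1 1.64, Mapk3 1.59 and Map2k6 1.12), shares of 13.8% and 27.6% that do not exceed those over all genes. Of 14 feedback inhibitors, which damp these kinases, 3 rose at day 45 (Spry1 1.43, Dusp7 0.95 and Spry2 0.84) and 9 at days 100 and 200 (Spry1 1.75, Dusp5 1.48 and Dusp4 1.47), with 0 lower. The first share, 21.4%, is near that over all genes, and the second is 64.3%.

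Downstream, known target genes of AP-1 and of Myc were counted. The lists were chosen with earlier results of these data known, so their shares describe and do not test AP-1 or Myc activity. Of 26 AP-1 targets listed, 20 passed the filter on the mean of all 14 livers, which favours genes that are high after Cre. Spp1 is also counted among the cholangiocyte markers below. Of 20 AP-1 target genes, 17 rose at day 45, led by Spp1, or osteopontin (3.84), Cdkn1a (3.75) and Ccnd1 (2.92), and 19 at days 100 and 200, led by Spp1 (5.60), Anxa2 (3.78) and Mmp2 (3.28), with 0 lower, which is 85% and 95% of those tested. Their median was 1.93 at day 45 and 2.01 later. Of 28 Myc target genes, 4 rose and 0 fell at day 45 (Ccnd2 1.22, E2f1 1.12 and Cdk4 0.85), and 6 rose and 2 fell at days 100 and 200 (Ccnd2 1.69, Cdk4 1.29 and E2f1 0.96 led, and Hspd1 (-0.71) and Shmt1 (-0.84) fell). The shares higher, 14.3% and 21.4%, lie below those over all genes. The median of the Myc targets was 0.11 at both times, below that of all tested genes (0.20 and 0.31), while Myc itself was higher by 2.25 and 2.39. The leaders act in the cell cycle. Ncl and Npm1, which act in ribosome making, differed by 0.28 and -0.30 at day 45 and were not called. In the network that shares Max, 3 of 10 rose and 1 fell at day 45 (Mlxip 0.79 and Mnt 0.75, and Mlxipl, the carbohydrate-responsive factor ChREBP, at -0.93), and 5 rose and 1 fell at days 100 and 200 (Mlxip 1.13, Mnt 0.92 and Mxd1 0.90 led, with Mlxipl at -0.73), with 30% and 50% higher. Of 12 relatives of Klf6, 3 rose and 0 fell at day 45 (Klf16 1.00, Klf7 0.80 and Klf4 0.75) and at days 100 and 200 (Klf7 1.09, Klf16 0.94 and Klf4 0.83), and the share of 25% is near that over all genes. At day 21, where 6.2% of all tested genes were called higher, 11 of 20 AP-1 target genes (55%), 8 of 49 other immediate early genes (16.3%), 2 of 12 other basic zipper factors, 2 of 24 ligands and receptors, 2 of 10 genes of the Max network, 2 of 28 Myc targets and 0 of the other lists were higher. In the knockout, where 19.3% were called higher, these were 17 of 20 AP-1 targets (85%), 18 of 49 immediate early genes (36.7%) and 5 of 12 basic zipper factors. They were also 9 of 24 ligands and receptors, 4 of 10 genes of the Max network and 2 of 28 Myc targets. With them were 5 of 29 in the MAP kinase chain, 4 of 14 feedback inhibitors and 1 of 12 relatives of Klf6. In that comparison 14.5% of all tested genes were called lower, and 4 of the 28 Myc targets were. 1 gene each was lower among the AP-1 targets, the MAP kinase chain, the Max network and the relatives of Klf6. In the other pathway lists 0 were lower.

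Markers of other cells were also higher after Cre, some of them already at day 21. Myc, Klf6, Ier3 and Fosl2 were then also above all uninjected mice, though not called, and the order in time was not tested. In bulk liver, more cells of a type and more RNA per cell cannot be told apart. Some markers of neutrophils, lymphocytes and cholangiocytes failed the filter on the mean of all 14 livers. That filter favours markers that are high after Cre or in the knockout, so the counts called for these cells are partly set by it. The sums in FPKM include the markers of these cells that failed it. All macrophage, endothelial, and stellate cell and fibroblast markers in the sums passed it. Macrophage markers (10 genes) summed to 230 to 417 FPKM in uninjected livers, 584 to 771 at day 21 (4 of 10 tested markers called higher), 818 to 920 at day 45 (10 of 10), 857 to 1035 at days 100 and 200 (6 of 10) and 297 to 814 in the knockout (5 of 10, with mouse C lowest). Neutrophil markers (7) went from 5.08 to 20.3 FPKM in uninjected livers to 44.3 to 142.6 at day 21 (3 of 4 tested), 45.4 to 87.5 at day 45 (3 of 4) and 110 to 195 later (4 of 4), and lymphocyte markers (9) from 3.35 to 6.51 in uninjected livers to 19.1 to 41.4 at day 21 (6 of 7), 15.1 to 22.3 at day 45 (6 of 7) and 18.1 to 28.2 later (6 of 7). Stellate cell and fibroblast markers (10) went from 141 to 194 FPKM to 376 to 608 at day 45 (9 of 10) and 548 to 559 later (10 of 10), and cholangiocyte markers (7), which include Spp1, from 46.5 to 59.9 to 409 to 1344 (6 of 6) and then 1935 to 2935. Endothelial markers (8) were 90.3 to 156 FPKM in uninjected livers, 187 to 190 at day 45 (3 of 8) and 76.1 to 86.1 in the knockout, and 9 hepatocyte markers were 32530 to 35700 in uninjected livers, 26740 to 33560 at day 45, 19950 to 29160 at days 100 and 200 and 32170 to 35220 in the knockout. Of 10 tested hepatocyte markers, 1 (Cyp3a11) was called higher at day 45, 1 (Apoa1) lower at days 100 and 200 and 0 either way in the knockout. In the knockout, neutrophil markers summed to 33.0 to 170.7 FPKM (4 of 4 called higher), those of lymphocytes to 7.89 to 21.2 (4 of 7), those of stellate cells and fibroblasts to 207 to 294 (6 of 10) and those of cholangiocytes to 557 to 824 (6 of 6), while 2 of 8 endothelial markers (Lyve1 and Clec4g) were called lower. The hepatocyte sum leaves out Alb, listed at 0 in all livers, and Trf, listed at 0 in 11 of 14 livers. The part of these cells in the levels of Myc, Klf6, Ier3 and Fosl2 was not tested.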

How the data were processed

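RNA-seq of 14 livers was used, with each column mapped to its mouse by label. Polyadenylated RNA was sequenced from both fragment ends, and the authors aligned the reads to mm9 with TopHat and deposited FPKM from Cufflinks (version 2.2.1), scaled to the upper quartile. The authors also deposited microRNA values as RPM, used here only for the share of miR-122. A count model was not fitted, since FPKM are not counts. The 22308 rows were summed to 21888 symbols (224 with several rows). log2(FPKM + 1) of the 11354 genes averaging 1 FPKM or more was fitted with limma 3.58.1 in R 4.3.3 (lmFit, contrasts, eBayes with trend) in 1 model of 5 groups, with Benjamini-Hochberg adjustment within each comparison. The study's own fold changes and its Cuffdiff test were not used. The fit was tested on simulated data. Other computations used Python 3.11.15, numpy 2.4.6, pandas 2.3.3 and matplotlib 3.10.9. Alternatives were another pseudocount (0.1), other filters, scalings and weights, a replicate block, and mice left out. The 3 added after seeing the data are knockout mouse C alone, uninjected B and day 45 C left out together, and removal of the GC trend. The 10 genes, the lists and the rules were chosen with earlier results of these data known. From each list the genes named are the 3 with the largest difference among those called at day 45 and at days 100 and 200. Ncl, Npm1, the 2 Myc targets that fell, Cyp3a11, Apoa1, Lyve1, Clec4g, Btg2, Zfp36 and Ier2 were named after their values were seen. Deviations of same-letter mice correlated by 0.236 to 0.501 between days 21 and 45, so that comparison is also given with the letters as a block. Replicates are separate mice, and the late group joins 1 mouse of each of 2 days.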

Additional observations from a re-analysis of the deposited data

How the results depend on the processing

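The calls of Myc, Klf6 and Fosl2 at days 100 and 200 and of Myc at day 45 held under every alternative tried. Of the 670 differences of single genes from uninjected mice under an alternative, 582 kept direction and side of the threshold, 43 lost the call, 18 gained it and 27 turned sign, all but 1 of these for Fos, Jun, Egr1, Atf3 or Jund outside a call. The number of the 10 genes called at day 21 (0) became 1 with a pseudocount of 0.1, 3 with array weights, 2 in a fit of only the 2 groups and 1 with the GC trend removed, settings under which 9.5%, 27.8%, 15.6% and 14.6% of all genes were called, against 7.62%. At day 45 (4) it was 2 without a filter, 2 with centred libraries and 1 without uninjected B and day 45 C together (24.2%, 21.5% and 11.9% of all genes, against 26.7%). In the knockout (5) it was 3 without a filter, 10 with array weights, 3 in the fit of 2 groups, 0 with mouse C alone and 3 without uninjected B and day 45 C (23.7%, 78.9%, 9.77%, 5.91% and 15.4% of all genes, against 33.8%). The array weights did not converge fully and called 8962 of 11354 genes in the knockout. At days 100 and 200 (4) array weights called 5, with Junb added. From day 21 to day 45 they called 1 (Myc, with 17.2% of all genes), and between knockout and day 45 they called 7 (68.8%). With 1 mouse left out, the numbers ran from 0 to 1 at day 21, 1 to 4 at day 45, 3 to 4 at days 100 and 200, 3 to 6 in the knockout, and 0 to 3 between knockout and day 45, while 2.14% to 5.66%, 15.7% to 24.1%, 14.3% to 26.9%, 14.4% to 62.4% and 2.03% to 52.2% of all genes were called. They stayed at 0 between times after Cre. Centring lowered the share of higher genes among all called from 88.8% to 67.4% at day 45 and from 89.8% to 64.3% at days 100 and 200, and from 88% to 75.9% between day 45 and days 100 and 200, and raised it from 12.8% to 45.9% between knockout and day 45. Removal of the GC trend lowered it from 81.4% to 62.5% at day 21, to 57.4% at day 45 and to 56.1% at days 100 and 200.

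Signs turned as follows. Without uninjected B, the lowest values with 1 mouse left out were reached, and the highest without uninjected A (Egr1 at day 45, without day 45 C). They ran from -0.82 to 1.97 for Fos, -0.11 to 1.45 for Jun, -0.48 to 1.71 for Atf3 and -1.24 to 1.10 for Egr1 at day 45, from -0.95 to 1.85, -0.52 to 1.04, -0.37 to 1.82 and -0.60 to 1.54 at days 100 and 200, from -0.049 to 2.10 for Egr1 in the knockout and from -0.0096 to 0.51 for Jund at day 21. Without day 45 C as well, Atf3 was -0.28 and Egr1 -0.23 at day 45, and the values of the other groups were the same as without uninjected B alone. Egr1 at day 45 was -0.14 with centred libraries, -0.45 with array weights, -0.29 and -0.54 without day 45 A or B, and -0.21 without the GC trend, which also gave Jund -0.036 at day 45 and -0.12 later and Jun -0.031 later. Jund in mouse C alone was -0.13. Causes were not tested beyond these settings.

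Letters A, B and C name different animals. With them as a replicate block in the 4 groups that carry them, 0, 3 and 4 of the 10 genes were called at day 21, at day 45 and in the knockout, against 0, 4 and 5 without it, with Ier3 at day 45 (adjusted p = 0.052) and Jund in the knockout (0.0651) lost. The block called 4.14%, 23.5% and 26.6% of all genes, against 7.62%, 26.7% and 33.8%. Same-letter deviations correlated by -0.45 to 0.50, above 0.1 in 8 of 18 pairs. All 3 pairs passed 0.1 between days 21 and 45, where the block left 0 of the 10 genes called, and 1 of 3 did between any other groups, whose mice share only a letter. The depth was 20850000 fragments or more, and the fewest behind a value of the 10 genes were about 33.1 (Ier3, uninjected mouse B). The 95% intervals of Fos, Egr1, Atf3 and Jun at day 45 reach 3.38, 2.33, 2.43 and 2.35 log2 units, so changes up to these sizes lie within them. The parts of depth and of the number of mice in the missing calls were not tested.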
